A study of Mus musculus with 8 samples.

Results

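Genes of the heart's blood vessels were compared between sedentary and swimming-trained mice. The set holds 31 genes, named one by one and found through the gene annotation: 12 secreted or membrane-bound ligands, 11 receptors, 5 transcription factors and 3 endothelial surface markers. All 31 were among the 18137 genes to which the deposited table could be summed, through 82 of its 51169 transcripts. The study asked how the RNA of the aging mouse heart differs after swimming training. It has 4 heart samples labelled sedentary and 4 labelled swimming, all from wild-type (WT) Mus musculus, and the labels name no other allele or agent. The age in months, the sex, and the length of the training are not given in the sources used here. It is also not stated that each numbered biological replicate is a separate mouse. The p-values set the difference between groups against the spread between samples within groups, which may in part be technical.

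New vessels grow when tissue cells release vascular endothelial growth factors (VEGFs) that bind receptor tyrosine kinases on endothelial cells. Angiopoietins acting on the TEK receptor steady or loosen the vessel wall, and Notch signalling through DLL4 limits how many cells lead a sprout. In the heart a dense capillary bed lies beside the muscle fibres, cardiomyocytes are a major source of VEGF-A and VEGF-B, and endurance exercise is a classical stimulus of vessel growth in muscle.

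Each value is an FPKM, a fragment count divided by transcript length and library size, here added up over the transcripts of a gene. FPKM totals ranged from 210413 to 235461 per library. The depth inferred from the lowest values was 0.871 to 1.00 in relative terms in 7 libraries and 1.64 in swimming replicate 2, and absolute depth is unknown. These values rest on pairs with sedentary replicate 1. The direct pairs of swimming replicate 2 with swimming replicate 1 and every sedentary replicate gave the same order. In them 1 read was worth 1.72 to 1.83 times as much FPKM in the other library. The pair with swimming replicate 4 also did, with 1 read worth 0.532 times as much in swimming replicate 2. Only the direct pair of swimming replicates 2 and 3 gave the opposite order, with 1 read worth 1.22 times as much FPKM in replicate 2. Steps at ratios of 2 were allowed, and an error by that factor was not tested. The relative depths are therefore uncertain. Marker genes of liver (sum 64.9 FPKM against 12.5 to 17.0) and of fat (21.9 against 0.865 to 1.97) were high in sedentary replicate 4. All 15 blood vessel endothelial markers were present in every library, with sums of 220 to 243 FPKM in sedentary hearts and 225 to 246 FPKM in swimming ones, and 8 of them are in the set described. Cardiomyocyte markers summed to 14387 to 17491 FPKM in sedentary hearts and 16339 to 18132 FPKM in swimming ones. In whole hearts, fewer cells of a type and less RNA per cell cannot be told apart.

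No gene of the set passed the test of swimming against sedentary hearts. The test was limma on log2(FPKM + 0.5), with Benjamini-Hochberg adjustment over all 11674 genes with a mean of at least 0.5 FPKM, and a call needed an adjusted p below 0.05. All 31 genes were above that filter. The smallest limma adjusted p among them was 0.658, and 0 of 31 were called, beside 0.0171% of all genes tested (2 genes). At an unadjusted p below 0.05 there was 1 gene, Apln, beside 7.37% of all genes tested. No gene of the set had groups that did not overlap, beside 4.82% of all genes. Mean log2 values were higher in swimming hearts for 17 genes and lower for 14, with a median log2 fold change of 0.0053, while the median over all genes tested was 0.03 and 58.7% of all genes were higher. The split of 17 and 14 became 12 and 19 with median-of-ratios scaling, which divides each library by its median ratio to the geometric mean of each gene, and 16 and 15 with quantile normalization.

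The precision differed widely between the genes. The fold changes and their 95% intervals are of FPKM + 0.5, which understates changes of low values. For 15 of the 31 that interval lay within 25% of no change, including Angpt2 (mean 1.05 FPKM) and Vegfc (2.26 FPKM). The half-width of that interval was under 0.2 log2 units for 10 genes, which were Vegfb, Pdgfb, Dll4, Kdr, Tek, Notch1, Robo4, Eng, Cdh5 and Pecam1. At the other end, the highest library was more than 2 times the lowest for 9 genes, Fgf1, Esm1, Fgf2, Angpt1, Hif1a, Flt1, Nrp1, Sox17 and Aplnr, and no statement on a small change can be made for those.

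**Figure D1:**
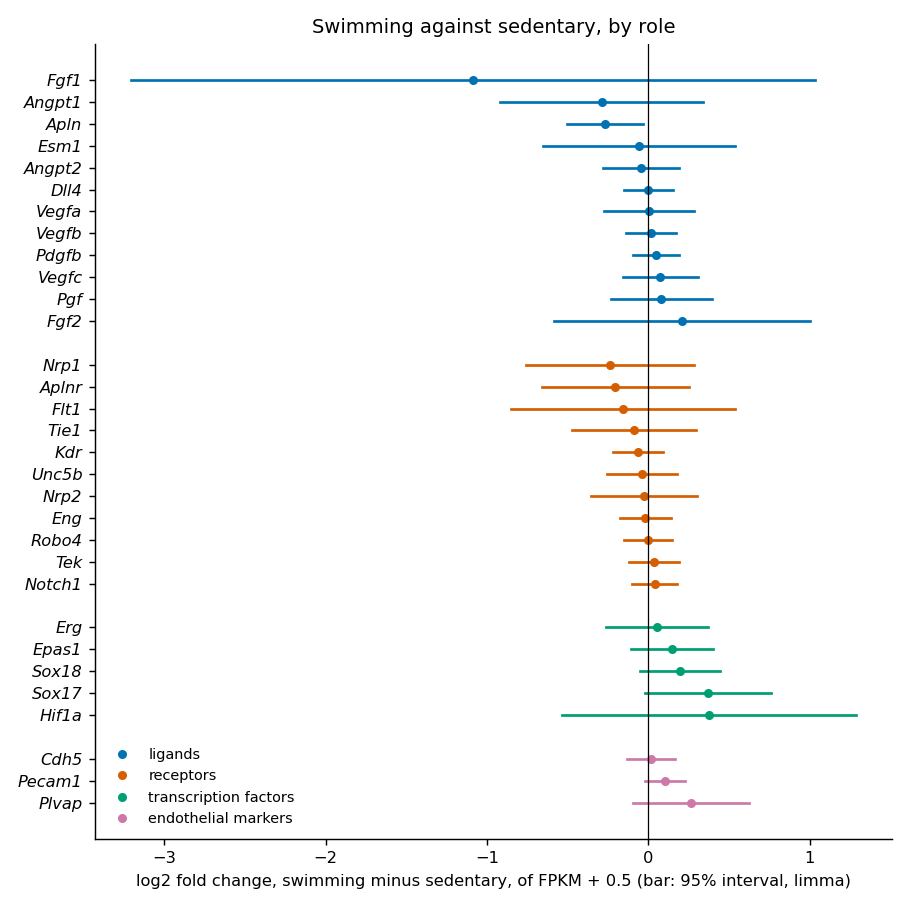
Log2 fold change of each gene (point, swimming minus sedentary, of FPKM + 0.5) with its 95% limma interval (bar), by role, n = 4 libraries per group. The bars of all genes but Apln cross 0, and the Fgf1 bar is the widest, from -3.21 to 1.03.

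Of the 12 ligands 7 had a higher and 5 a lower mean log2 value in swimming hearts, which became 4 and 8 with median-of-ratios scaling and 6 and 6 with quantile normalization. Without single libraries 4 to 7 of the 12 were higher. Vegfb and Vegfa were among the most abundant genes of the set per length, while Vegfc and Pgf were among the least abundant. Vegfb, which binds FLT1 and is linked to fatty acid handling in heart muscle, stood at 62.9 ± 5.25 FPKM in sedentary hearts and 63.5 ± 2.52 FPKM in swimming ones (SD, n = 4 per group in this and the following values). Its 95% interval ran from -9.27% to 12.6%. Vegfa, the main driver of sprouting (chromosome 17, 46016993 to 46032369, minus strand, build GRCm38/mm10), stood at 47.4, 45.7, 41.9 and 38.6 FPKM in sedentary replicates 1 to 4 and at 44.8, 53.0, 41.9 and 35.9 FPKM in swimming replicates 1 to 4. The 2 groups overlapped almost fully, with an interval from -17.3% to 21.8%. Vegfc, best known for lymphatic growth, ranged over 1.98 to 2.62 FPKM in all 8 libraries, and Pgf, the placental growth factor that binds FLT1, over 1.38 to 2.19 FPKM. The ratio of Vegfa to Vegfb averaged 0.697 ± 0.119 in the sedentary and 0.689 ± 0.0926 in the swimming group (exact two-sided permutation p = 0.971, the same after adjustment over 3 ratios).

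**Figure D2:**
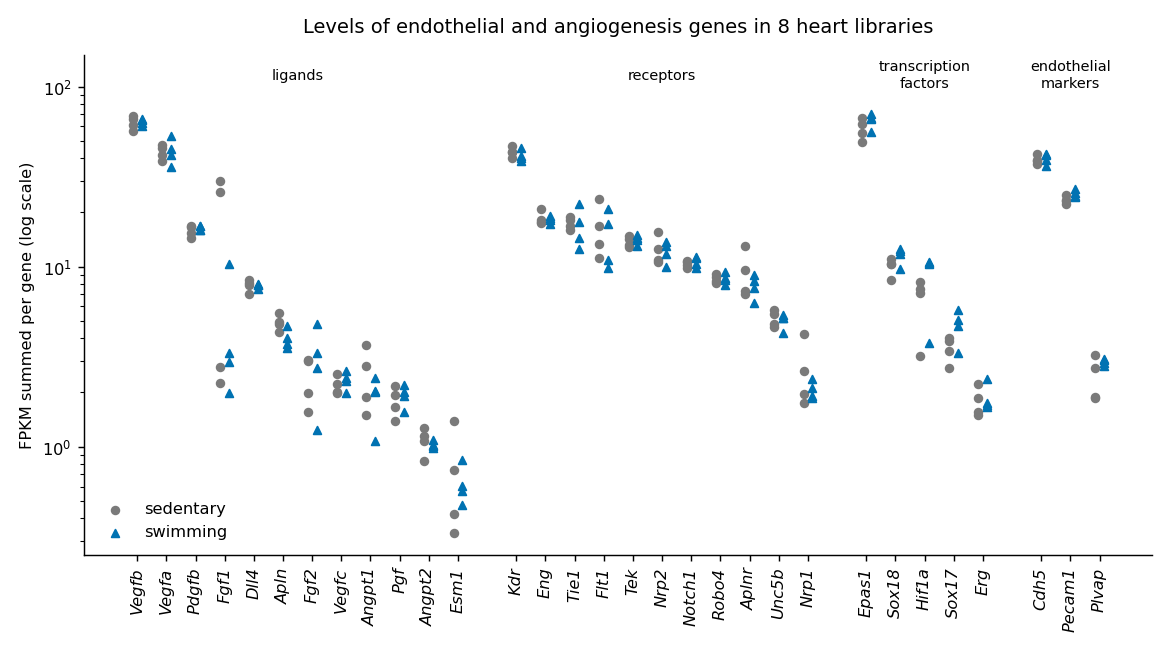
FPKM summed per gene on a log axis for the 31 genes, by role and in falling order of their mean, with 4 sedentary (circles) and 4 swimming (triangles) libraries. Vegfb, Epas1, Vegfa, Kdr and Cdh5 are the most abundant, and the circles and triangles of every gene overlap.

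Vegfa differed between libraries in which transcript was listed, and not along the lines of training. Its transcripts differ by the exons that bind heparin and neuropilins: Vegfa-201 (146 codons, the short diffusible form) has neither, Vegfa-202 (368 codons, counted from an upstream start) has a 132-base exon, and Vegfa-207 (392 codons) has a further 72-base exon. Both exons are printed because they tell the 3 forms apart. They lie at chr17:46020991-46021122 and chr17:46022277-46022348 (GRCm38/mm10, minus strand, GENCODE M21), with all bases in capitals as absent from the shorter form.
Vegfa-202 exon absent from Vegfa-201: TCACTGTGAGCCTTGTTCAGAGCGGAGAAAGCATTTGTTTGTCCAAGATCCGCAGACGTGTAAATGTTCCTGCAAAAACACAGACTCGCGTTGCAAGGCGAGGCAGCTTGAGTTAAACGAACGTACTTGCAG
Vegfa-207 exon absent from Vegfa-202: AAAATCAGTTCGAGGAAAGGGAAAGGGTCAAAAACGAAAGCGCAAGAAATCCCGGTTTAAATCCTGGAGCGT
Vegfa-201 was listed at 38.4, 37.4, 34.3 and 0 FPKM in sedentary replicates 1 to 4 and at 36.5, 41.9, 0 and 0 FPKM in swimming replicates 1 to 4. Vegfa-202 took the opposite course, at 4.01, 3.08, 3.17 and 35.7 FPKM in sedentary and 2.92, 4.10, 38.8 and 32.2 FPKM in swimming replicates. In 5 libraries Vegfa-201 thus made up 79.2% to 81.9% of the gene, and in sedentary replicate 4 and swimming replicates 3 and 4 it was listed at 0. Every exon base of Vegfa-201 (100%) lies in exons of Vegfa-202, and an exact 0 can be a failed estimate, so the split between the pair is uncertain. Vegfa-207, the long matrix-bound form, held 7.17% to 13% of the gene in all 8 libraries.

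Angpt1, the TEK agonist made by cells around the vessel, stood at 1.5, 1.88, 2.79 and 3.67 FPKM in sedentary replicates 1 to 4. It stood at 2.41, 1.08, 2.04 and 2.01 FPKM in swimming replicates 1 to 4. The groups overlapped, the highest value was in sedentary replicate 4, and the log2 fold change was -0.29 (SE 0.27, limma adjusted p = 0.823). Angpt2, the context-dependent antagonist released by endothelial cells, was at 1.08 ± 0.185 and 1.02 ± 0.0442 FPKM. The ratio of Angpt2 to Angpt1 averaged 0.501 ± 0.213 in the sedentary and 0.593 ± 0.232 in the swimming group (exact two-sided permutation p = 0.514, 0.971 adjusted over 3 ratios). Without sedentary replicate 4 the sign of its difference turned, from 0.24 to -0.022 on the log2 scale.

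Fgf1, a fibroblast growth factor of muscle and vessel cells, varied most between libraries of the set, by 15.0-fold. It stood at 26.0, 2.24, 29.8 and 2.78 FPKM in sedentary replicates 1 to 4 and at 3.30, 10.3, 2.94 and 1.99 FPKM in swimming replicates 1 to 4. Sedentary replicates 1 and 3 were far above all others, swimming replicate 2 lay between, and the groups overlapped. The log2 fold change was -1.09 (SE 0.92, limma adjusted p = 0.801), and leaving out each library in turn moved it between -1.67 and -0.51. Fgf2, a related growth factor stored in the matrix, ranged from 1.56 to 3.02 FPKM in sedentary hearts and from 1.24 to 4.77 FPKM in swimming ones. Exons of Nudt6 on the opposite strand overlap it, and the sources used here do not say whether strand was used in counting. Such opposite-strand exons overlap 7 genes of the set in GENCODE M21, Fgf2, Angpt1, Dll4, Notch1, Eng, Sox17 and Hif1a, so that reads from both strands may be mixed in their values. On the same strand, exons of Gm43439 overlap Fgf2, those of the protein-coding Gm49321 overlap Hif1a, and Mir1903 overlaps Nrp1. Strand would not separate these.

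Pdgfb, which recruits pericytes to the new vessel, and Dll4, the Notch ligand of the leading sprout cell, had narrow intervals. Pdgfb stood at 15.8 ± 1.15 FPKM in sedentary hearts and 16.4 ± 0.568 FPKM in swimming ones. Dll4 stood at 7.85 ± 0.609 and 7.83 ± 0.235 FPKM, with an interval from -9.99% to 11.1%. Esm1, a secreted proteoglycan that marks sprouting tip cells, was the least abundant of the set. It stood at 1.39, 0.743, 0.423 and 0.330 FPKM in sedentary and at 0.474, 0.608, 0.837 and 0.563 FPKM in swimming replicates 1 to 4, so that the sedentary group held both its highest and its lowest value.

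Apln, the gene of the peptide hormone apelin, came nearest to a difference. Apelin widens vessels and strengthens the heartbeat through the receptor APLNR, and the peptide is cut from the end of its precursor. The coding sequence (chrX:48028299-48034505, GRCm38/mm10, minus strand, a span that includes the introns between the coding exons, GENCODE M21) is printed with the codons of the last 13 residues, an active form of the hormone, in capitals.
Apln coding sequence: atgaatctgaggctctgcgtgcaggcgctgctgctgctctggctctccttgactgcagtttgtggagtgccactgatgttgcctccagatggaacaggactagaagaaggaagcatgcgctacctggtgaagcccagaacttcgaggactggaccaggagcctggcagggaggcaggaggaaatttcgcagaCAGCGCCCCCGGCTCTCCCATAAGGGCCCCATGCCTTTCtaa
It stood at 5.49, 4.79, 4.94 and 4.31 FPKM in sedentary replicates 1 to 4 and at 3.54, 4.67, 3.71 and 3.99 FPKM in swimming replicates 1 to 4. In swimming hearts 3 of 4 values were below every sedentary value, and swimming replicate 2 lay among the sedentary ones. The means were 4.88 ± 0.486 and 3.98 ± 0.496 FPKM, and the log2 fold change was -0.27 (SE 0.10, limma unadjusted p = 0.0298, adjusted p = 0.658). The share of all genes lower in swimming hearts at that unadjusted threshold was 2.43%, and 4.93% were higher. The unadjusted p was above 0.05 with the replicate block, with library weights, and on leaving out any 1 of 6 libraries, the exceptions being sedentary replicate 4 and swimming replicate 2. By the exact two-sided permutation test over libraries its p was 0.0571, where 4 against 4 libraries can reach 0.0286. Its receptor gene Aplnr stood at 12.9, 9.58, 7.05 and 7.33 FPKM in sedentary and at 8.98, 7.58, 6.26 and 8.30 FPKM in swimming replicates 1 to 4, with sedentary replicate 1 the highest and the groups overlapping.

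**Figure D3:**
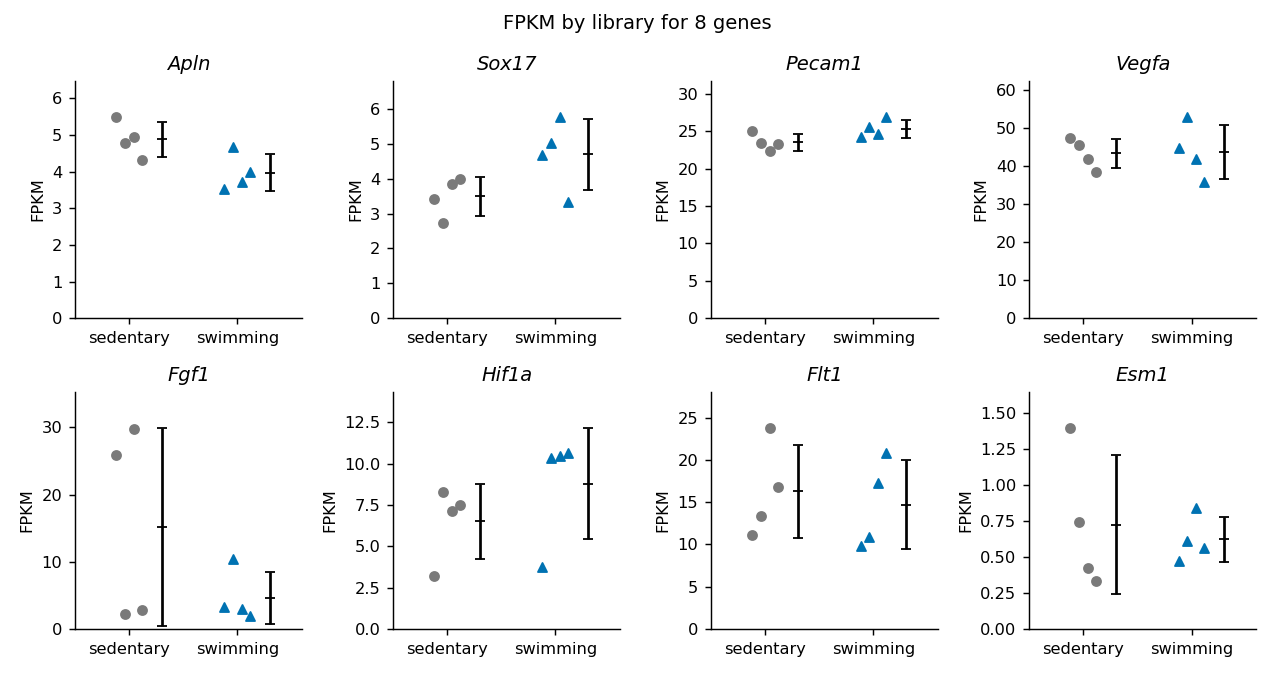
FPKM in each of 4 sedentary (circles) and 4 swimming (triangles) libraries for 8 genes, with the mean and SD beside them (black). Apln is lower in 3 of 4 swimming libraries, Pecam1 and Sox17 overlap, and Fgf1, Hif1a and Flt1 vary more within groups than between them.

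Among the receptors, 2 of 11 had a higher and 9 a lower mean log2 value in swimming hearts, a split of 1 and 10 with median-of-ratios scaling and of 5 and 6 without sedentary replicate 3 or swimming replicate 1, with a median log2 fold change of -0.04 and none at an unadjusted p below 0.05. Kdr, the main signalling receptor for VEGF-A, stood at 43.3 ± 2.74 and 41.4 ± 2.97 FPKM, with an interval from -14.2% to 6.72%. Nrp1, a VEGF co-receptor, reached 4.23 FPKM in sedentary replicate 1, while the other 7 libraries lay at 1.74 to 2.62 FPKM. Nrp2, the co-receptor of veins and lymphatics, was at 12.4 ± 2.24 and 12.1 ± 1.65 FPKM. Tek stood at 13.8 ± 0.950 and 14.1 ± 0.813 FPKM. Tie1, an orphan receptor that modulates TEK, ranged over 16.1 to 18.7 FPKM in sedentary and over the wider 12.5 to 22.4 FPKM in swimming hearts.

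Flt1 encodes both a membrane receptor and a soluble decoy that traps VEGF-A, and the decoy transcript was the larger part of the gene in 7 of 8 libraries. The soluble form, Flt1-203 (688 codons), reads on into an intron and stops there, while Flt1-202 (1333 codons) splices on to the membrane and kinase parts. Both ends are printed from the same 30 shared bases, with the bases after the split in capitals. The soluble end lies at chr5:147639130-147639254 and the membrane form over the same junction within chr5:147634464-147639254 (GRCm38/mm10, minus strand, GENCODE M21).
Flt1-203 soluble tail: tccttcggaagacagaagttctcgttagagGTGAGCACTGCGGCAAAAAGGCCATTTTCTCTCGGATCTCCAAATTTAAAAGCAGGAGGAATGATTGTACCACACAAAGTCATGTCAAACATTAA
Flt1-202 over the same junction: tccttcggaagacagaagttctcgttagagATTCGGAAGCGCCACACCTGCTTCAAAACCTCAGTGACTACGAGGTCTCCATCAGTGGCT
Flt1-203 stood at 9.20, 11.4, 10.7 and 13.8 FPKM in sedentary and at 8.51, 10.0, 14.3 and 10.7 FPKM in swimming replicates 1 to 4. Flt1-202 stood at 1.97, 2.01, 13.1 and 2.93 FPKM in sedentary and at 1.25, 0.844, 3.01 and 10.2 FPKM in swimming replicates 1 to 4. The membrane form was high in sedentary replicate 3 and swimming replicate 4 alone, where the soluble share was 45.0% and 51.1%, against 82.4% to 92.2% in the other 6 libraries. The gene sum followed, at 11.2, 13.4, 23.8 and 16.8 FPKM in sedentary and 9.76, 10.9, 17.3 and 20.9 FPKM in swimming replicates. The ratio of Flt1 to Kdr was 0.378 ± 0.129 and 0.353 ± 0.116 (exact two-sided permutation p = 0.771, 0.971 adjusted over 3 ratios), and its difference of -0.091 on the log2 scale turned to 0.10 without sedentary replicate 3.

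Notch1, the receptor of DLL4, stood at 10.3 ± 0.419 FPKM in sedentary hearts and 10.7 ± 0.680 FPKM in swimming ones. The guidance receptors Unc5b and Robo4, which restrain vessel growth and leak, were at 5.15 ± 0.510 and 5.0 ± 0.495 FPKM, and at 8.56 ± 0.424 and 8.55 ± 0.570 FPKM. Eng, the endothelial co-receptor for TGF-beta and BMP ligands (chromosome 2, 32646595 to 32682669, plus strand), was at 18.5 ± 1.61 and 18.3 ± 0.777 FPKM, an interval from -11.5% to 10.1%. Exons of Fpgs overlap it on the opposite strand.

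For Eng the share of 1 transcript did not overlap between the groups, although no test of it passed. Eng-202 (641 codons) keeps an intron near its end and stops within it, as the short-tailed endoglin known from endothelial cells does, and Eng-205 (652 codons) carries the long tail. Both ends are printed from the same 30 shared bases, with the rest in capitals; they start at chr2:32681268 and end at 32681386 for Eng-202 and 32681561 for Eng-205 (GRCm38/mm10, plus strand, GENCODE M21).
Eng-202 tail: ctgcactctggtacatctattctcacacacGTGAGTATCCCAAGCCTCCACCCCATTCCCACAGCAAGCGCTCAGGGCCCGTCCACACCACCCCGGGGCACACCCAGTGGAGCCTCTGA
Eng-205 tail: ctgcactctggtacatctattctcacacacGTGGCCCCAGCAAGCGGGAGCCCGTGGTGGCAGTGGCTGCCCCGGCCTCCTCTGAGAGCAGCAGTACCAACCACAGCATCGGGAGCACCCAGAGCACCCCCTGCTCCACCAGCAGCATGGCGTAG
Eng-202 stood at 2.92, 2.19, 3.89 and 3.97 FPKM in sedentary and at 4.23, 4.63, 4.56 and 4.16 FPKM in swimming replicates 1 to 4. Every swimming value was above every sedentary one, and the log2 fold change was 0.42 (SE 0.17, limma unadjusted p = 0.0410, adjusted p = 0.877 over 22614 transcripts). Its share of the gene was 17.4% ± 4.02 in sedentary and 24.1% ± 0.730 in swimming hearts, again without overlap. That share also missed the threshold (limma adjusted p = 0.961 over 10914 transcript shares), and 94.4% of the exon bases of Eng-202 lie in exons of Eng-205. Eng-205 held 72.2% ± 3.31 and 65.6% ± 2.93 of the gene, with overlap.

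**Figure D4:**
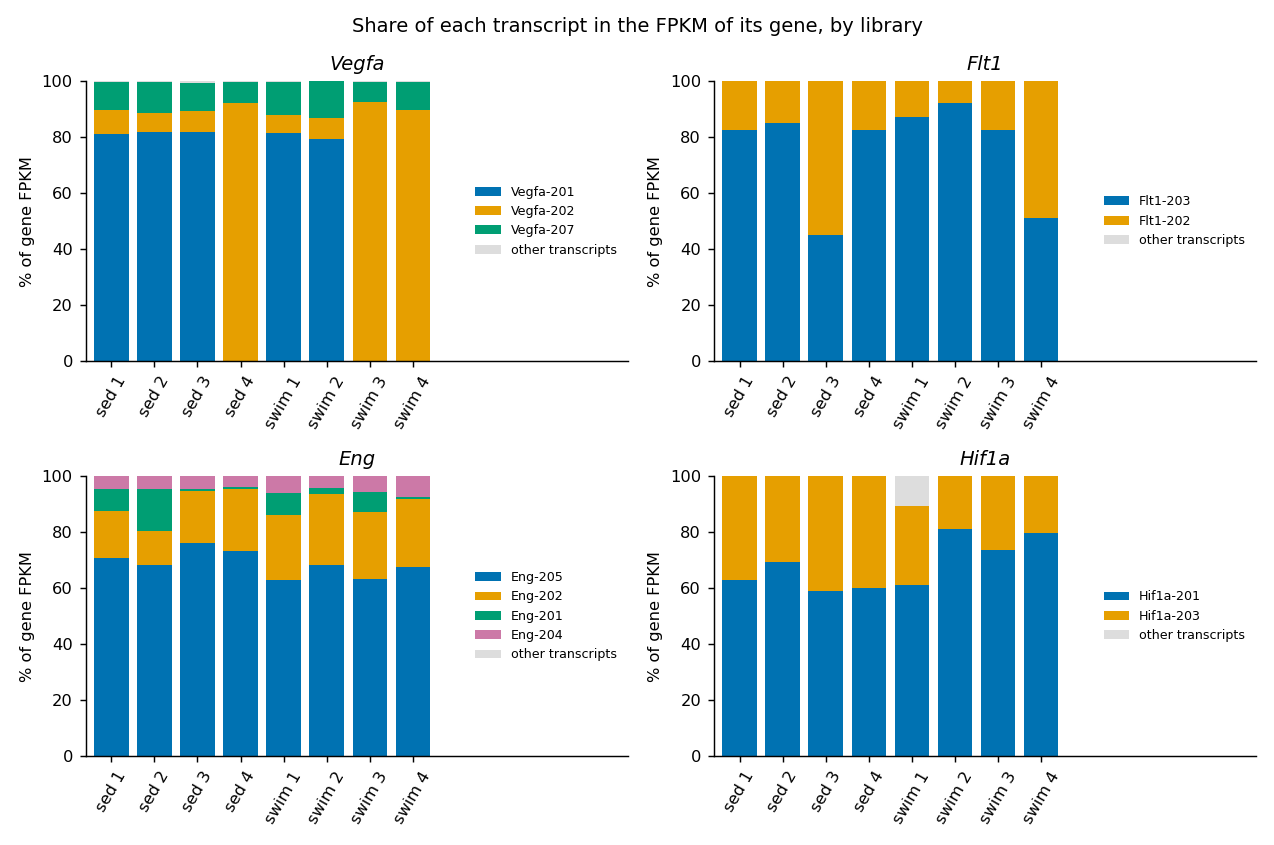
Share of each transcript in the FPKM of its gene, in percent, for 4 sedentary and 4 swimming libraries (stacked bars). Vegfa-201 is at 0 and Vegfa-202 is the larger share in 1 sedentary and 2 swimming libraries, Flt1-203 is at 45.0% and 51.1% in 2 libraries, and the shares of Eng-202 and Hif1a-203 do not overlap between the groups.

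All 5 transcription factors had higher mean log2 values in swimming hearts, also with both other scalings, with a median log2 fold change of 0.20, and none was at an unadjusted p below 0.05. Without sedentary replicate 3, or without swimming replicate 1, it was 4 of 5. Sox17, a factor of arterial endothelium (chromosome 1, 4490931 to 4497354, minus strand), stood at 3.40, 2.72, 3.85 and 3.99 FPKM in sedentary and at 4.67, 5.02, 5.76 and 3.33 FPKM in swimming replicates 1 to 4. In swimming hearts 3 of 4 values lay above all sedentary ones, and the log2 fold change was 0.37 (SE 0.17, limma adjusted p = 0.679). The gene sum adds transcripts of different lengths whose shares varied between libraries. Sox17-201 (3127 bases) held 57.8% of the gene in sedentary replicate 1 and 0% in swimming replicate 3. Sox17-202 (1512 bases) held 53.8% in swimming replicate 3 and 0% in sedentary replicate 4. A further transcript (3242 bases) held 50.6% in swimming replicate 4 and 0% in sedentary replicate 4. The effect of such shifts on the sum was not tested. Sox18, a relative with roles in vessel and lymphatic development, stood at 11.0, 10.3, 8.41 and 10.3 FPKM and at 12.5, 12.2, 11.8 and 9.69 FPKM. Again swimming replicate 4 lay within the sedentary range, and the log2 fold change was 0.20 (SE 0.11, limma adjusted p = 0.708).

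Epas1, which encodes the hypoxia-inducible factor HIF-2alpha of endothelial cells, stood at 61.7, 49.2, 55.4 and 67.2 FPKM in sedentary and at 55.9, 66.5, 70.3 and 65.6 FPKM in swimming replicates 1 to 4. The groups overlapped, and the log2 fold change was 0.15 (SE 0.11, limma adjusted p = 0.776). Erg, an endothelial factor of the ETS family, ranged over 1.49 to 2.23 FPKM in sedentary hearts and 1.67 to 2.36 FPKM in swimming ones. Hif1a, the widely expressed hypoxia-inducible factor, stood at 3.19, 8.25, 7.13 and 7.48 FPKM and at 3.75, 10.4, 10.5 and 10.6 FPKM. Replicate 1 of each group was low and the other 3 swimming values were above all sedentary ones, so that the groups overlapped and the interval ran from -30.8% to 144%.

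The short transcript of Hif1a likewise held shares that did not overlap between the groups and did not pass the test. Hif1a-203 (258 codons) ends in an intron, before the oxygen-sensing and activating parts of the protein, and its end at chr12:73932447-73932480 (GRCm38/mm10, plus strand, GENCODE M21) is printed with the intronic bases and stop in capitals.
Hif1a-203 tail: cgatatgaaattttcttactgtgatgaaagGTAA
Its share of the gene was 37.2%, 30.7%, 40.8% and 39.9% in sedentary and 27.9%, 18.8%, 26.4% and 20.2% in swimming replicates 1 to 4. All swimming shares were below all sedentary ones, at a log2 change of -0.85 in the transcript over the rest of the gene (SE 0.26, limma unadjusted p = 0.0110, adjusted p = 0.961). The level of Hif1a-203 itself overlapped, at 1.19 to 2.99 FPKM in sedentary hearts and 1.05 to 2.75 FPKM in swimming ones. The full-length Hif1a-201 was at 4.11 ± 1.55 and 6.72 ± 2.97 FPKM. Of the exon bases of Hif1a-203, 65.9% lie in exons of Hif1a-201, and exons of Gm49321 overlap the gene on the same strand. The split between the pair is therefore uncertain.

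The 3 surface markers had higher mean log2 values in swimming hearts, but 2 of 3 with median-of-ratios scaling, where Cdh5 was lower, and 2 of 3 without sedentary replicate 2, swimming replicate 1 or swimming replicate 4. Pecam1, the adhesion molecule CD31 at endothelial contacts, stood at 25.1, 23.4, 22.3 and 23.3 FPKM in sedentary and at 24.2, 25.5, 24.6 and 26.9 FPKM in swimming replicates 1 to 4. The groups overlapped through sedentary replicate 1, and the log2 fold change was 0.10 (SE 0.054, limma adjusted p = 0.702). Cdh5, the cadherin of endothelial junctions, was at 39.2 ± 2.16 and 39.7 ± 2.75 FPKM, an interval from -8.69% to 12.4%. Plvap, a protein of the diaphragms of fenestrated vessels and of endocardium, stood at 1.88, 1.85, 2.73 and 3.23 FPKM and at 3.06, 2.93, 3.01 and 2.80 FPKM. Its sedentary libraries split into a low and a high pair while the swimming libraries were close together (log2 fold change 0.27, SE 0.16, limma adjusted p = 0.725).

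Over single transcripts, 52 of the 82 had a mean of at least 0.5 FPKM, and 17 genes had 1 such transcript while 14 had more. No transcript of the set was called, beside 0.0531% of the 22614 tested, and 3 were at an unadjusted p below 0.05, beside 5.51%. They were Apln-201, Eng-202 and Pdgfb-203. Pdgfb-203, a short transcript of 49 codons, was listed at 0.319, 0, 0 and 0 FPKM in sedentary and at 1.64, 1.20, 1.5 and 0 FPKM in swimming replicates 1 to 4 (limma adjusted p = 0.877, or 0.140 without swimming replicate 4). Without overlap and higher in swimming hearts were Eng-202 and Robo4-202, beside 2.6% of all transcripts. Robo4-202 ranged over 0.724 to 0.835 FPKM in sedentary hearts and 0.872 to 1.10 FPKM in swimming ones. Of the shares of 35 transcripts, none was called, beside 0.0458% of all 10914, and 3 were at an unadjusted p below 0.05, beside 4.48%, those of Eng-202, Hif1a-203 and Pdgfb-203. The shares of Eng-202 and Hif1a-203 did not overlap between the groups, beside 3.12% of all.

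Other genes of the pathways are given from lists, none of which had a called gene. Of 32 further endothelial genes tested, 25 were higher and 7 lower (22 and 10 with median-of-ratios scaling), with a median log2 fold change of 0.08, and 5 were higher and 0 lower at an unadjusted p below 0.05, beside 4.93% of all genes higher at that threshold. Groups did not overlap for 3 of the 32, beside 4.82% of all genes in either direction. Aqp1, the water channel of capillary endothelium and red cells, was at 71.1 ± 2.42 and 79.6 ± 4.96 FPKM without overlap, and Ptprb, a phosphatase that restrains TEK, at 21.1 ± 1.49 and 23.2 ± 0.462 FPKM without overlap. Ly6c1 was at 59.9 ± 6.88 and 72.5 ± 6.70 FPKM, and the venous receptor gene Ephb4 at 14.6 ± 0.697 and 16.0 ± 0.744 FPKM. The smallest limma adjusted p of these 4 was 0.639. The count of 5 became 0 with median-of-ratios scaling, without sedentary replicate 4 or without swimming replicate 3, 1 without swimming replicate 2, 2 with quantile normalization, with the replicate block, or without sedentary replicate 2 or swimming replicate 1, 3 with no variance trend or without sedentary replicate 1, and 6 without swimming replicate 4. Over all genes, that scaling changed the split at this threshold from 576 higher and 284 lower to 354 and 486, and quantile normalization to 423 and 391. Macrophage markers were higher in swimming hearts in 12 of 12 cases (11 with quantile normalization), with sums of 213 to 225 FPKM and 253 to 286 FPKM that did not overlap. The macrophage count was 11 also without sedentary replicate 4, swimming replicate 2 or swimming replicate 3. It was 10 without sedentary replicate 4 and swimming replicate 2 together. Fibroblast markers were higher in 11 of 12 cases, with overlapping sums of 575 to 641 FPKM and 630 to 688 FPKM. The fibroblast count was 9 without sedentary replicate 4, and 7 without sedentary replicate 4 and swimming replicate 2 together. It was 12 without swimming replicate 3 or 4. Smooth muscle markers summed to 215 to 310 FPKM and 325 to 367 FPKM without overlap. Of these sums Des, which cardiomyocytes also express, made up 213 FPKM and 292 FPKM on average. The rest of that list together was lower on average in swimming hearts, so the separation of the sums came with Des. Of its 6 tested genes 4 were higher and 2 lower. At a limma unadjusted p below 0.05, 2 were higher and 1 lower, beside 7.37% of all genes. The part of these cell types in the values was not tested.

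In the endothelial BMP and TGF-beta list 14 genes were higher and 4 lower (12 and 6 with median-of-ratios scaling), with a median log2 fold change of 0.12. Acvrl1, which encodes the receptor kinase ALK1 that partners with endoglin, stood at 9.55, 10.1, 10.4 and 8.79 FPKM in sedentary and at 11.1, 11.7, 11.0 and 10.6 FPKM in swimming replicates 1 to 4. The groups did not overlap, and the log2 fold change was 0.18 (SE 0.066, limma unadjusted p = 0.0254, adjusted p = 0.657). Such separation was seen for 1 of the 18 genes of this list, beside 4.82% of all genes. In the hypoxia list 7 genes were higher and 16 lower (5 and 18 with median-of-ratios scaling, 6 and 17 with quantile normalization), with 3 lower at an unadjusted p below 0.05, beside 2.43% of all genes. That count was 2 without sedentary replicate 3 and 6 without sedentary replicate 1. The 3 were Hk2 (hexokinase, 74.3 ± 2.89 and 66.3 ± 1.89 FPKM), Egln3 (an oxygen-sensing prolyl hydroxylase, 24.7 ± 3.78 and 17.5 ± 3.62 FPKM) and Pfkfb3 (a regulator of glycolysis, 2.21 ± 0.579 and 1.39 ± 0.277 FPKM), with Hk2 and Egln3 free of overlap, beside 4.82% of all genes.

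The splits of 6 other lists moved with the scaling. The VEGF and angiopoietin list had 12 genes higher and 12 lower (10 and 14 with median-of-ratios scaling), and Pld2, a phospholipase, was at 2.96 ± 0.112 and 3.52 ± 0.139 FPKM without overlap (limma adjusted p = 0.586). Map2k1, a kinase of the MAPK cascade, was also free of overlap, but lower in swimming hearts, at 14.0 ± 0.571 and 13.4 ± 0.177 FPKM (limma adjusted p = 0.776). Groups did not overlap for 1 higher and 1 lower of the 24 genes tested, beside 4.82% of all genes in either direction. The Notch list had 11 higher and 9 lower, which turned to 8 and 12 with that scaling and 9 and 11 with quantile normalization, with none at an unadjusted p below 0.05. The FGF, PDGF and guidance list had 14 higher and 8 lower (11 and 11, and 12 and 10, in that order of scalings). Sema3g, an endothelial semaphorin, was at 4.13 ± 0.410 and 5.07 ± 0.266 FPKM and the ligand Pdgfc at 0.801 ± 0.0270 and 1.01 ± 0.114 FPKM, both without overlap. They were 2 of 22 genes tested, beside 4.82% of all genes. The list of angiogenesis inhibitors had 7 higher and 10 lower (2 and 15, and 6 and 11). At a limma unadjusted p below 0.05, 1 of its 17 tested genes was higher and 1 lower, beside 7.37% of all genes. Spry4, a brake on growth factor signalling, was at 6.22 ± 1.30 and 4.69 ± 0.371 FPKM. The sprouting and tip cell list had 9 higher and 13 lower (8 and 14, and 10 and 12) with none at an unadjusted p below 0.05. That lean reversed to 15 and 7 without sedentary replicate 1 or swimming replicate 4, to 12 and 10 without swimming replicate 1, and to 14 and 8 with library weights. Among cells of the vessel wall, the pericyte list had 4 higher and 6 lower (2 and 8, and 3 and 7). Its potassium channel subunit gene Abcc9, which cardiomyocytes also express, was at 80.3 ± 6.95 and 62.3 ± 4.35 FPKM without overlap. Such separation was seen for 1 of its 10 genes, beside 4.82% of all genes. The lymphatic list had 6 of 6 higher, with Mmrn1 at 2.49 ± 0.355 and 3.17 ± 0.314 FPKM, and the endocardial list 4 of 6 higher, with the same counts under both scalings. The lymphatic sums were 23.4 and 24.5 FPKM in swimming replicates 2 and 3, while swimming replicates 1 and 4, both at 14.9 FPKM, lay within the sedentary range of 14.8 to 16.5 FPKM. Its median log2 fold change of 0.29 was 0.17 without swimming replicate 2 and 0.14 without swimming replicate 3, and without sedentary replicate 4 and swimming replicate 2 together the split was 3 and 3.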

How the data were processed

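RNA of 8 samples of whole mouse heart was depleted of ribosomal RNA and copied with random hexamers, per the labels' protocols. The deposited table gives FPKM per transcript and library, made by the authors. Salmon 0.8.2, HISAT2, featureCounts 1.4.6-p5, Subread and STAR 2.5.1a are named with build mm10, per the submitters' processing notes; the sources used here do not say which made the FPKM. GENCODE M21 named 45676 of 45742 Ensembl transcripts, and their FPKM were summed to genes; 5427 assembled transcripts (11.3% to 12.5% of a library's FPKM) entered the transcript test only. 

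Low values lay on whole-read steps in 11.1% to 17.5% of ratios between libraries, too few to recover reads, so depth is unknown, no count test was run and no counting interval is given. limma 3.58.1 (R 4.3.3, lmFit, eBayes with trend, none for shares) was fitted to log2(FPKM + 0.5) of all 8 libraries with group as the only term. It was tested on simulated data with the same means and spreads, in 5 runs with 200 features changed in each. The changes were 0.5, 1, 2 or 3 log2 units. The adjusted threshold is easier to reach with that many changes than with the 2 genes called here, so recovery in these data may be lower. Changes of 1 log2 unit were recovered there for 72.4% of genes, 41.2% of transcripts and 6.4% of shares. At 0.5 log2 units these were 39.6%, 11.2% and 0%. False calls per run were 9.2, 8.4 and 3.6. Fold changes of log2(FPKM + 0.5) understate those of low values. Shares are log2 of a transcript over the rest of its gene, each plus 0.5. Members were described in full where the unadjusted p was below 0.05, where groups did not overlap, or among the 8 smallest p; up to 4 genes per list were taken by smallest p. Members and lists were chosen with earlier results of these data known. Replicate numbers showed no pairing of the samples over all genes tested (correlations of deviations at equal numbers from -0.054 to 0.023). Pairing in part of the genes was not tested. Alternatives were the pseudocount, filter, scaling, replicate block, library weights, variance model, protein-coding transcripts only, and leaving out each library. Tables were made with Python 3.11.15 and pandas 2.3.3, figures with matplotlib 3.10.9.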

Additional observations from a re-analysis of the deposited data

Results flagged for a closer look

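In 10 of 132 groups of 4 libraries examined (7.58%), 1 library stood apart from the other 3 by Dixon's criterion at 95%. That criterion is met in about 5% of groups of independent, normally distributed values. The groups here include genes together with their own transcripts, and values of 0, so 7.58% cannot be set against 5%. At the gene level, Fgf1 was at 10.3 FPKM in swimming replicate 2 against 1.99 to 3.30 FPKM in the others of its group. Hif1a was at 3.75 FPKM in swimming replicate 1 against 10.4 to 10.6 FPKM, and its full-length transcript Hif1a-201 at 2.30 against 7.70 to 8.47 FPKM. Erg was at 2.36 FPKM in swimming replicate 1 against 1.67 to 1.74 FPKM, and Erg-203 at 1.37 against 0.753 to 0.819 FPKM. Sedentary replicate 4 listed Vegfa-201 at 0 FPKM against 34.3 to 38.4 FPKM and Vegfa-202 at 35.7 FPKM against 3.08 to 4.01 FPKM. Flt1-202, the membrane form, was at 13.1 FPKM in sedentary replicate 3 against 1.97 to 2.93 FPKM. Sox17-202 was at 0.911 FPKM in sedentary replicate 3 against 0 to 0.00974 FPKM, and Pdgfb-203 at 0.319 FPKM in sedentary replicate 1 against 0 in the others.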

How the results depend on the processing

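No gene, transcript or share of the set was called under any alternative run. Of 826 recomputed values of single genes, transcripts and shares, 779 kept their direction and side of the threshold and 47 reversed, in 17 genes of the set. The genes called over all genes, 2, became 1 with a pseudocount of 0.1 or quantile normalization, 0 with the replicate block and 0 to 5 without single libraries (0 without swimming replicate 2, 5 without swimming replicate 4). The transcripts called, 12, became 7 with a filter of 1 FPKM, 0 with the replicate block and 6 to 26 without single libraries. The shares called, 5, became 8 with no filter, 0 with the block and 5 to 16 without single libraries. Without sedentary replicate 4 and swimming replicate 2 together, chosen after seeing the data, the genes called were 1 and the transcripts 22. The replicate numbers showed no pairing over all genes tested, and pairing in part of the genes was not tested. Whether the block is a correction is therefore unknown. Log2 fold changes reversed with median-of-ratios scaling for Tek (-0.0015), Vegfa (-0.034), Vegfb (-0.024), Dll4 (-0.037) and Cdh5 (-0.020), with quantile normalization for Dll4 (-0.020), with library weights for Nrp2 (0.039) and Esm1 (0.019), and with protein-coding transcripts only for Robo4 (0.0039). Without single libraries, or without sedentary replicate 4 and swimming replicate 2 together, the range crossed 0 for Angpt1 (-0.46 to 0.081, reversed only without the 2 together), Angpt2 (-0.13 to 0.0091), Cdh5 (-0.0077 to 0.062), Dll4 (-0.053 to 0.035), Eng (-0.047 to 0.039), Erg (-0.040 to 0.14), Esm1 (-0.22 to 0.18), Fgf2 (-0.022 to 0.62), Flt1 (-0.34 to 0.041), Nrp2 (-0.15 to 0.084), Pgf (-0.028 to 0.16), Robo4 (-0.041 to 0.031), Tie1 (-0.23 to 0.072), Unc5b (-0.10 to 0.028), Vegfa (-0.14 to 0.096) and Vegfb (-0.036 to 0.055), and for the log2 ratios of Angpt2 to Angpt1 (-0.022 to 0.41), Flt1 to Kdr (-0.28 to 0.10) and Vegfa to Vegfb (-0.094 to 0.085). The cause was not tested. Median-of-ratios scaling moved the median of all genes from 0.03 to -0.0041. With unknown depth, no limit on undetected differences can be set beyond the intervals given.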

Other observations

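A pair of genes outside the set, picked after their values were seen, had separate levels within a group. Bnip3, a hypoxia-induced gene of mitochondrial clearance, reached 98.8 FPKM in sedentary replicate 3 and 53.1 FPKM in sedentary replicate 4, while the other 6 libraries lay at 1.71 to 5.12 FPKM. Kcnj8, which encodes the pore of a vascular potassium channel, was at 9.33 and 9.56 FPKM in swimming replicates 3 and 4 and at 1.71 to 2.46 FPKM in the other 6.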
